A study of Mus musculus with 6 samples.

Results

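The genes described here belong to glycolysis and to the response to low oxygen, and they were followed in the esophageal epithelium of mice in which the transcription factor gene *Klf4* was targeted. The members are 20 genes of glucose uptake, glycolysis and lactate handling and 12 other hypoxia genes, and 30 of these 32 had a probe set that named a single gene, out of 19938 genes compared. *Gpi1* and *Eno1* were not analysed here. Of the 30, all had a mean signal over the 6 arrays above the 40th percentile of all genes (4.72 on the log2 scale), and no member was removed by a filter. Gene expression was read on 6 microarrays, 1 for each mouse, with tissue taken at 3 months of age from animals of mixed genetic background. The 3 mice labelled mutant carried ED-L2-Cre and both copies of *Klf4* flanked by loxP sites (Klf4loxp/loxp), and the 3 labelled control were sex-matched littermates that carried the floxed gene but lacked the transgene. The ED-L2 promoter is active in squamous epithelium, so other cells of the sampled tissue are not the target of this Cre. Replicate 1 of either genotype was a male, and the other 2 replicates were females.

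Glycolysis splits glucose into pyruvate in the cytosol, and lactate dehydrogenase turns pyruvate into lactate. When oxygen is plentiful, prolyl hydroxylases of the EGLN family mark the alpha subunits of hypoxia-inducible factor (HIF) for destruction. When oxygen is scarce, HIF accumulates and raises the transcription of glucose transporters, most glycolytic enzymes, pyruvate dehydrogenase kinase and a set of stress genes. In stratified squamous epithelium, blood vessels run beneath the basal layer, and the outer layers are the most distant from them.

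The labelled tissue was checked against its markers. All 13 measured genes of squamous epithelium had means above the 40th percentile, and their summed linear signal lay between 59883 and 65101 in the control group and between 61834 and 65773 in the mutant group. The mean deviation of the 13 genes separated the groups (-0.25, -0.11 and -0.16 in the controls and 0.37, 0.064 and 0.085 in the mutants). Yet 7 of the 13 were higher and 6 lower, with a median difference of 0.027 beside a mean of 0.35. The 4 genes *Krt6a* (3.30, the largest difference of the list), *Dsg3* (0.73), *Epcam* (0.63) and *Cdh1* (0.21) were higher without overlap, as were 10.1% of all genes. None of the 13 passed. The signal of *Klf4* was 9.75, 10.15 and 10.06 in the libraries labelled control and 10.28, 10.50 and 10.28 in those labelled mutant. The difference was 0.37 ± 0.13 on the log2 scale (SE, 95% interval 0.054 to 0.68, limma adjusted p = 0.314). Its signal was thus not lower where it was targeted. All mutant values lay above all control values, as for 10.1% of all genes. The sources used here do not give the position of the probes relative to the deleted part, and a probe outside that part checks nothing. Directions therefore rest on the labels, and "higher" and "lower" compare the group labelled mutant with the group labelled control, called mutants and controls for short.

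Skeletal muscle RNA differed widely between arrays of the same genotype. The 23 measured skeletal muscle markers were all lower by mean on the arrays labelled mutant, with a median of -0.78 (log2), but none passed the test in limma and none had an unadjusted p under 0.05. Their mean per array, relative to the 6 arrays, was -2.00, 2.08 and 1.08 on control 1 to 3 and 0.54, 0.14 and -1.84 on mutant 1 to 3. Control 1 and mutant 3 stood lowest and control 2 highest, with summed linear signals from 1644 to 45683 in the controls and from 1905 to 15714 in the mutants. No skeletal marker was at 0, and 1 of the 23 had a mean under the 40th percentile. *Acta1*, encoding skeletal muscle actin, read 8.43, 13.07 and 12.35 in the controls and 11.83, 11.61 and 8.60 in the mutants. The fibroblast markers did follow the labels: all 19 measured were lower (median -0.78, 3 past the threshold), with summed linear signals of 5556 to 9440 in the controls and 3536 to 3849 in the mutants. Of the 12 smooth muscle markers, 11 were lower (median -0.72), and none passed (summed linear signals of 3249 to 5253 in the controls and 1766 to 2726 in the mutants). Of these 11, 8 had an unadjusted p under 0.05 in limma and 5 were without overlap. Over all genes, 6.63% and 8.0% were lower in these ways. The mean deviation of the 7 measured adipocyte markers also separated the groups, at -0.25, -0.17 and -0.17 in the controls and 0.13, 0.28 and 0.18 in the mutants (summed linear signals of 244 to 303 and 353 to 562). Of the 7, however, 4 were higher and 3 lower, with a median difference of 0.094 beside a mean of 0.39. The largest difference was 2.40 for *Fabp4*, and *Adipoq* differed by -0.034. Of the 12 endothelial markers, 6 were higher and 6 lower (median -0.015), and 1 lower gene passed. Their summed linear signals were 659 to 685 in the controls and 506 to 568 in the mutants. Of the 11 macrophage markers, 9 were lower (median -0.29), with overlapping sums, and 1 higher and 1 lower gene passed. Over all genes, 0.366% passed higher and 0.672% lower. The part of smooth muscle, adipocyte, endothelial and macrophage RNA in the results was not tested. In these bulk samples, fewer cells of a type and less RNA per cell cannot be told apart.

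The comparison asked how genes of glucose use and hypoxia differed in the epithelium when *Klf4* was targeted. Among the glycolysis genes, 15 of 18 were lower on the arrays labelled mutant, with a median difference of -0.33 on the log2 scale, and 1, *Pfkfb4*, passed the test. Among the other hypoxia genes, 7 of 12 were lower, with a median of -0.23, and none passed, while 2 higher and 3 lower genes had an unadjusted p under 0.05 in limma. Over all 19938 genes, 44.5% were lower and the median difference was 0.022. An adjusted p under 0.05 was reached by 207 genes, which is 1.04%, with 0.366% higher and 0.672% lower. The groups did not overlap for 13 of the 30 members, 4 higher and 9 lower, against 18.1% of all genes in either direction, 10.1% higher and 8.0% lower. An unadjusted p under 0.05 was reached by 3 members that were higher and 9 that were lower, beside 5.79% and 6.63% of all genes. A difference of at least 0.5 in size was shown by 10 of the 30 members and by 6.53% of all genes. The number of glycolysis genes that were lower was 11 without control 2 and 14 without mutant 3. The medians without control 2 were -0.20 for glycolysis and -0.14 for hypoxia genes. The hypoxia median was -0.12 without mutant 3. With the fibroblast score in the fit, which itself followed the labels, the glycolysis median was 0.11 and 8 of 18 genes were lower. The direction then turned for *Slc2a3*, *Hk1*, *Hk2*, *Pfkm*, *Pfkp*, *Aldoa*, *Eno3*, *Ldha*, *Slc16a3* and the hypoxia gene *Epas1*. The errors of these genes were larger in that fit, for example 0.44 for *Hk2* and 0.22 for *Hk1*. With genotype only they were 0.24 and 0.092. None of the 30 members passed with the fibroblast score, so these turned directions are uncertain. Leaving out control 2 turned the direction of *Slc2a3* (0.087), *Ldha* (0.024) and *Slc16a3* (0.047), beside *Eno3* and *Epas1*, leaving out mutant 1 that of *Slc2a1* (-0.055) and *Ldha* (0.026), and leaving out control 1, mutant 2 or mutant 3 that of *Ndrg1* (-0.11, -0.077 and -0.17).

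**Figure D1:**
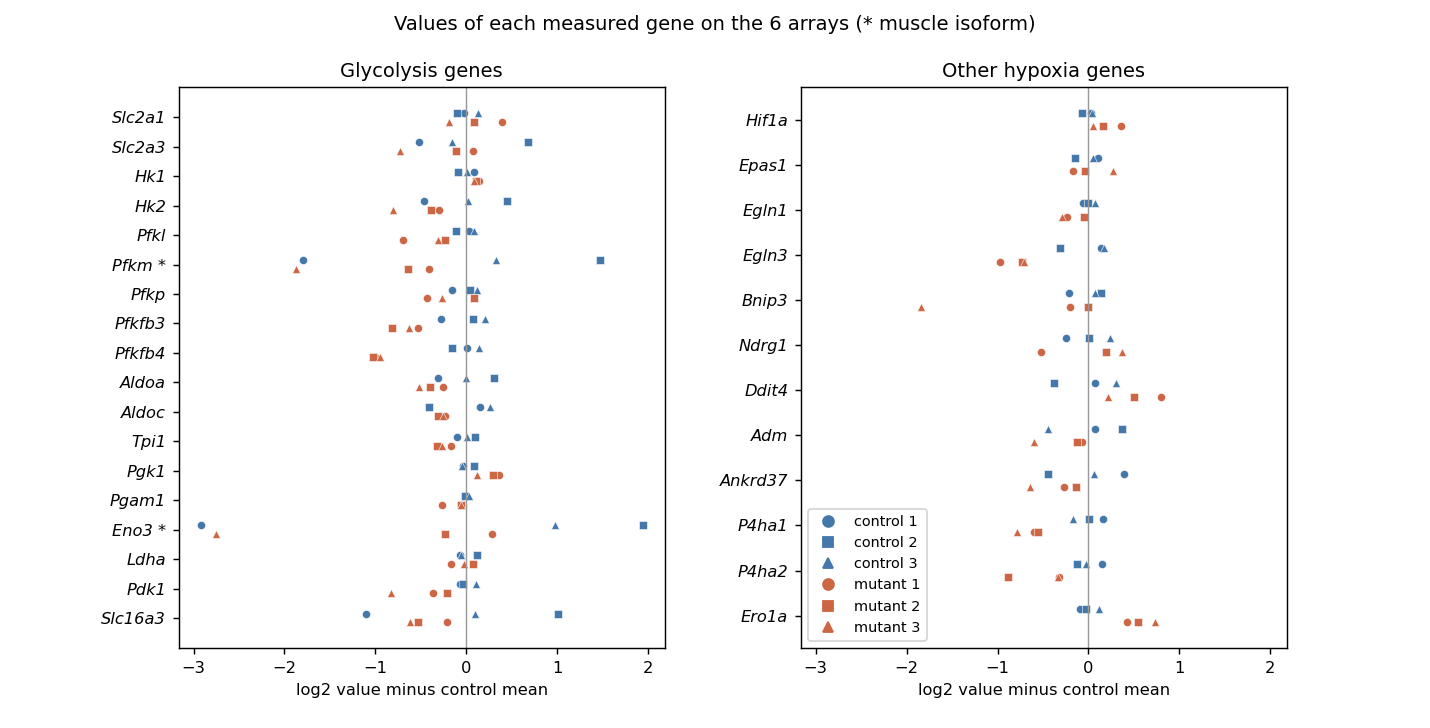
Log2 value minus the control mean for each measured gene (rows) on each of the 6 arrays, with glycolysis genes on the left and other hypoxia genes on the right; blue marks control, orange mutant, and the marker shape the replicate. The mutant points of *Pfkfb4* lie close together and apart from the controls, the points of *Eno3* and *Pfkm* spread over several log2 units in both genotypes, and mutant 3 stands alone for *Bnip3*.

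The only member called was *Pfkfb4*, a regulator of phosphofructokinase. It encodes an enzyme that makes and breaks down the form of fructose bisphosphate that switches phosphofructokinase on. It read 8.68, 8.51 and 8.81 in the controls and 7.66, 7.64 and 7.72 in the mutants. Every mutant value lay below every control value, and the 3 mutant arrays differed among themselves by less than 0.1. The means were 8.67 ± 0.15 and 7.67 ± 0.042 (SD, n = 3 each), a fall by 0.99 on the log2 scale (difference -0.99 ± 0.11, SE; 95% interval -1.24 to -0.74; limma adjusted p = 0.0118), which is 1.99-fold lower. The difference was -1.02 between the males and -0.98 in the females alone. Its call was lost without control 3 (difference -0.92, adjusted p = 0.0582) and in the females alone (adjusted p = 0.0774). With the fibroblast score in the fit the difference was -0.99 ± 0.27 (adjusted p = 0.944), and with the skeletal muscle score it was -1.01 ± 0.12 (adjusted p = 0.0108). *Pfkfb3*, the related enzyme best known as a HIF target in proliferating cells, read 5.84, 6.19 and 6.32 in the controls and 5.58, 5.29 and 5.49 in the mutants. Its groups did not overlap either, but the difference of -0.66 ± 0.15 did not pass (adjusted p = 0.105). With the fibroblast score in the fit it was -0.15 ± 0.29.

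Among the oxygen-sensing genes, the prolyl hydroxylase gene *Egln3*, itself a target of HIF, had the largest difference. It read 11.51, 11.07 and 11.55 in the controls and 10.40, 10.64 and 10.67 in the mutants, with every mutant array below every control array. The difference of -0.80 ± 0.15 (95% interval -1.16 to -0.45) had an adjusted p of 0.0693 and did not pass. It passed with the skeletal muscle score in the fit (difference -0.87 ± 0.14, adjusted p = 0.0309) and without control 2 (difference -0.96, adjusted p = 0.0353). *Egln1*, which encodes the main oxygen sensor of the family, differed by -0.19 ± 0.10 with overlapping groups (adjusted p = 0.522). *Hif1a*, encoding the HIF alpha subunit found in most cells, read 9.17, 9.07 and 9.18 in the controls and 9.50, 9.30 and 9.19 in the mutants. The lowest mutant value lay just above the highest control value, and the difference of 0.19 ± 0.11 did not pass (adjusted p = 0.556). *Epas1*, encoding the second alpha subunit, read 9.11, 8.86 and 9.05 and 8.84, 8.97 and 9.28 with overlapping groups and a difference of 0.025 ± 0.14 (95% interval -0.30 to 0.35), which turned to -0.040 with the skeletal muscle score and to -0.099 without mutant 3. HIF is controlled mostly through the stability of its alpha proteins, which these arrays do not measure.

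Enzymes that modify proteins in the endoplasmic reticulum differed in both directions, with no call. *P4ha1* and *P4ha2* encode catalytic subunits of collagen prolyl hydroxylase, and *Ero1a* (listed as *Ero1l*) encodes the oxidase that drives disulfide bond formation. *P4ha1* read 7.80, 7.64 and 7.46 in the controls and 7.04, 7.08 and 6.84 in the mutants, a difference of -0.65 ± 0.12 (adjusted p = 0.0662). *P4ha2* read 6.21, 5.94 and 6.03 and 5.74, 5.18 and 5.72, a difference of -0.51 ± 0.17 (adjusted p = 0.255). Both genes had all mutant arrays below all control arrays. *Ero1a* read 8.73, 8.80 and 8.95 in the controls and 9.25, 9.37 and 9.56 in the mutants, with all mutant arrays higher and a difference of 0.57 ± 0.12 (adjusted p = 0.0835). None of the 3 passed, in the main comparison or under any of the 18 alternatives, although their unadjusted p-values were 0.000852, 0.017 and 0.00144. The collagen enzymes are also active in fibroblasts, whose markers were lower on the same arrays. With the fibroblast score in the fit, *P4ha1* differed by -0.98 ± 0.26 and *P4ha2* by -0.91 ± 0.37, neither of which passed. This score itself separated the genotypes, so the 2 cannot be told apart. The part of fibroblast RNA in these differences was not tested.

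**Figure D2:**
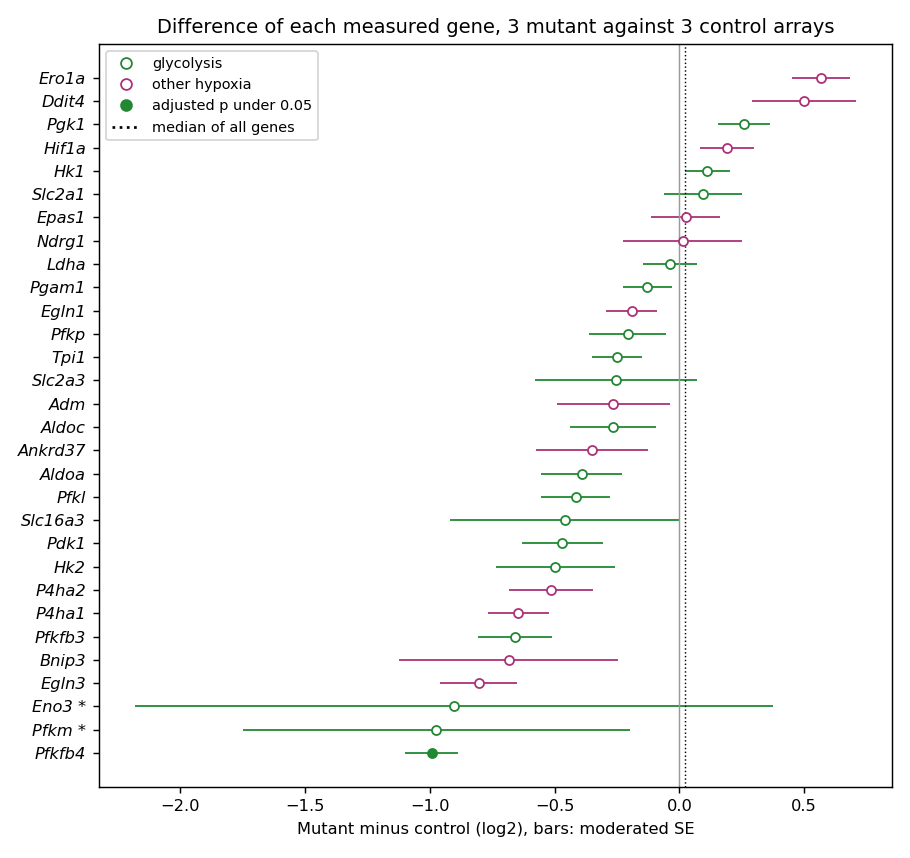
Difference of mutant minus control on the log2 scale for the 30 measured genes, sorted, with moderated standard errors; green marks glycolysis, purple other hypoxia genes, a filled point an adjusted p under 0.05, and the dotted line the median of all genes. *Pfkfb4* lies lowest with a short error bar, and *Eno3* and *Pfkm* have differences of similar size with errors of 1.28 and 0.77.

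HIF binds DNA at short core letters, ACGTG or with a first G as in GCGTG, and the promoters of the 4 members with an adjusted p under 0.1 are printed to show where these letters lie. The sequences are RefSeq's for build GRCm38.p6 and run 5′ to 3′ from 250 bases before to 50 bases after the annotated start, with both cores, on either strand, in capitals. *Pfkfb4* (chr9:108991652-108991951, plus strand) holds GCGTG with its first base at position -117 from the start. *P4ha1* (chr10:59323046-59323345, plus strand) holds GCGTG at -163 and -126 and the reverse complement of ACGTG at -16. *Egln3* (chr12:54203825-54204124, minus strand) holds ACGTG at -229. *Ero1a* (chr14:45318523-45318822, minus strand) holds GCGTG at -128 and -88 and the reverse complement of ACGTG at -63.
Pfkfb4: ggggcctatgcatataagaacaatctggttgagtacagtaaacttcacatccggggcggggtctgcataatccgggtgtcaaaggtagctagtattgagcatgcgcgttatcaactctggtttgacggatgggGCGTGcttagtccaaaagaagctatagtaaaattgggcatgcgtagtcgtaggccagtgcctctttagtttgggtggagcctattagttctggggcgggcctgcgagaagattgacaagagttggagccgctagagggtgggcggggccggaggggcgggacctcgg
P4ha1: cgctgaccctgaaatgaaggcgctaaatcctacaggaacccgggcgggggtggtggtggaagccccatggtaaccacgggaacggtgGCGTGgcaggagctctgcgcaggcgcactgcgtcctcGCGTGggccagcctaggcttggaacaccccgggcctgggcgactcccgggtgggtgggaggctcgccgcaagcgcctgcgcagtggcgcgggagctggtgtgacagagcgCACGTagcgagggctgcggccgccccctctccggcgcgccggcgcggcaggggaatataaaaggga
Egln3: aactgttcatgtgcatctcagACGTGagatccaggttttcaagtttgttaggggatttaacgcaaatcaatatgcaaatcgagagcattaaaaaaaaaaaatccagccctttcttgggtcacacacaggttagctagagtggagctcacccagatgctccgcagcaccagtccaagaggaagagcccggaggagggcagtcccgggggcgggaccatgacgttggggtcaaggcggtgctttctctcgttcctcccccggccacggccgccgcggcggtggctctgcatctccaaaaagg
Ero1a: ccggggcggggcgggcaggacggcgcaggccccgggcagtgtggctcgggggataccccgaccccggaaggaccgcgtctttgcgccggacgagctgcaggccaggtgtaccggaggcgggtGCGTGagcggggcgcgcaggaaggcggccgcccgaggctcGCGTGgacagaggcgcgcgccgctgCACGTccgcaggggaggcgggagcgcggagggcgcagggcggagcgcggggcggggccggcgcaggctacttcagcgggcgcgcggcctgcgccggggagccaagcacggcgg

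The letters were common in the promoters of the members. RefSeq's table gave 37 promoters for 27 of the 30 measured members, some of them with several starts, and the others are *Slc2a3*, *Epas1* and *Ndrg1*. Either core was present, on either strand, in 32 of the 37 (86.5%), compared with 43.8% of all 32851 promoters of the same length. All 10 promoters of the hypoxia genes held the letters, as did 22 of 27 of the glycolysis genes. CACCC, letters contained in sites of Kruppel-like factors such as KLF4, was found in 28 of the 37 (75.7%) and in 57.5% of all promoters. *Pfkfb4* held CACCC or its reverse complement 3 times, *P4ha1* 4 times, and *Egln3* and *Ero1a* once each. These counts describe letters and no binding was measured. The list of members holds known HIF targets, so their share is not independent of how they were chosen.

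At the entry of glucose into the pathway, single genes differed in opposite directions and none passed. *Slc2a1*, encoding the main glucose transporter of epithelia, differed by 0.095 ± 0.16 (adjusted p = 0.873) with overlapping groups, and by -0.065 in the females alone. *Slc2a3*, encoding a transporter of higher affinity, differed by -0.25 ± 0.32 (adjusted p = 0.823). Hexokinase traps glucose by phosphorylation. *Hk1* read 12.59, 12.42 and 12.51 in the controls and 12.65, 12.62 and 12.60 in the mutants, groups that did not overlap by a narrow margin, and the difference was 0.11 ± 0.092 (adjusted p = 0.707). A second probe set of *Hk1* gave -0.095, and with the fibroblast score in the fit the first gave -0.042, so its direction is not settled. *Hk2*, the inducible hexokinase that is abundant in muscle, read 8.66, 9.57 and 9.15 and 8.82, 8.74 and 8.33, and its difference was -0.50 ± 0.24 (adjusted p = 0.464).

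Phosphofructokinase commits sugar to glycolysis and has a liver (*Pfkl*), a muscle (*Pfkm*) and a platelet (*Pfkp*) isoform. *Pfkl* read 9.38, 9.23 and 9.44 in the controls and 8.66, 9.11 and 9.03 in the mutants, so that all mutant arrays were lower, by -0.42 ± 0.14 (adjusted p = 0.267). *Pfkp* differed by -0.21 ± 0.15 with overlapping groups (adjusted p = 0.671). *Pfkm* read 7.72, 10.98 and 9.84 in the controls and 9.11, 8.87 and 7.64 in the mutants. Control 1 and mutant 3 were the low arrays and control 2 the high one, and the difference of -0.97 ± 0.77 (adjusted p = 0.698) had a 95% interval of -2.78 to 0.83. A probe set of the liver isoform had a control SD of 0.11 and that of the muscle isoform a control SD of 1.66.

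In the later steps of the pathway the abundant enzymes differed by small amounts. *Tpi1*, encoding triosephosphate isomerase, read 11.42, 11.62 and 11.53 and 11.36, 11.20 and 11.26, with every mutant array lower and a difference of -0.25 ± 0.099 (adjusted p = 0.357). *Pgk1*, encoding the first ATP-forming enzyme of the pathway, went the other way with 10.83, 10.95 and 10.81 in the controls and 11.23, 11.16 and 10.98 in the mutants, a difference of 0.26 ± 0.10 (adjusted p = 0.368). *Pgam1*, encoding phosphoglycerate mutase, read 9.83, 9.83 and 9.88 and 9.58, 9.78 and 9.79 and differed by -0.13 ± 0.098, with groups that just did not overlap. The genes *Pgk1* and *Pgam1* each had 3 probe sets, of which 2 held identical values on all 6 arrays, so signal may be shared with near-identical copies and single values are uncertain. The other probe sets of *Pgam1* gave -0.030. The aldolase genes *Aldoa* and *Aldoc* differed by -0.39 ± 0.16 and -0.27 ± 0.17, with overlapping groups. *Eno3*, the muscle isoform of enolase, read 6.41, 11.27 and 10.31 in the controls and 9.61, 9.09 and 6.57 in the mutants, and its difference of -0.90 ± 1.28 (adjusted p = 0.845) turned to 0.066 without control 2 and to 0.021 without mutant 3.

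Lactate and pyruvate handling showed no call. *Ldha*, encoding the lactate dehydrogenase subunit favoured in glycolytic cells, differed by -0.037 ± 0.11 (95% interval -0.29 to 0.21; adjusted p = 0.933). *Pdk1*, encoding a mitochondrial kinase that inhibits pyruvate dehydrogenase, read 7.79, 7.83 and 7.97 and 7.50, 7.64 and 7.04. All its mutant arrays were lower, mutant 3 the most, and the difference of -0.47 ± 0.16 did not pass (adjusted p = 0.282). *Slc16a3*, encoding the lactate exporter of glycolytic muscle and of hypoxic cells, read 5.97, 8.08 and 7.17 in the controls and 6.86, 6.54 and 6.46 in the mutants, with a difference of -0.46 ± 0.46 (adjusted p = 0.767). The control values of this exporter spread over more than the whole range of its mutant values.

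The remaining hypoxia targets differed from one another in direction. *Bnip3*, encoding a receptor for the removal of mitochondria, read 8.38, 8.73 and 8.66 in the controls and 8.39, 8.59 and 6.75 in the mutants. Mutant 3 was the lowest array on both probe sets of the gene, and on the second one mutant 1 (7.16) also lay below all controls. The difference of -0.68 ± 0.44 (adjusted p = 0.617) was -0.10 without mutant 3. On the second probe set the difference over all 6 arrays was -0.38. *Ddit4*, a stress-induced inhibitor of mTOR signalling, read 6.55, 6.10 and 6.78 and 7.27, 6.97 and 6.69, higher by 0.50 ± 0.21 in the mutants with overlapping groups (adjusted p = 0.386). *Ankrd37*, a HIF target, and *Adm*, encoding the vasodilator peptide adrenomedullin, differed by -0.35 ± 0.22 and -0.26 ± 0.23. *Ndrg1*, a gene of stress and differentiation, differed by 0.013 ± 0.24 (95% interval -0.54 to 0.57). None of these 5 passed (adjusted p from 0.386 to 0.99).

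Several glycolysis genes followed the skeletal muscle markers across arrays. The skeletal muscle score ranked the controls from control 1 through control 3 to control 2, and the mutants from mutant 3 through mutant 2 to mutant 1. *Slc2a3*, *Hk2*, *Pfkm*, *Aldoa*, *Eno3* and *Slc16a3* showed both orders exactly, which makes 6 of 18 glycolysis genes and none of 12 hypoxia genes, where 3.4% of all genes did. With the score in the fit, the difference of *Eno3* went from -0.90 ± 1.28 to 0.046 ± 0.12 and that of *Pfkm* from -0.97 ± 0.77 to -0.41 ± 0.15. *Slc16a3* went from -0.46 ± 0.46 to -0.15 ± 0.23, *Hk2* from -0.50 ± 0.24 to -0.34 ± 0.11, *Aldoa* from -0.39 ± 0.16 to -0.29 ± 0.11 and *Slc2a3* from -0.25 ± 0.32 to -0.042 ± 0.17. None of the 6 passed with the score in the fit. The median of the glycolysis genes was then -0.20 with 14 of 18 lower, where 46.0% of all genes were lower, and the median of the hypoxia genes was -0.19. Leaving out the muscle isoforms *Pfkm* and *Eno3* gave a median of -0.26 for the other 16 glycolysis genes. *Pfkfb4*, *Egln3*, *P4ha1* and *Ero1a* kept differences of -1.01 ± 0.12, -0.87 ± 0.14, -0.66 ± 0.13 and 0.56 ± 0.13, of which the first 2 passed.

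**Figure D3:**
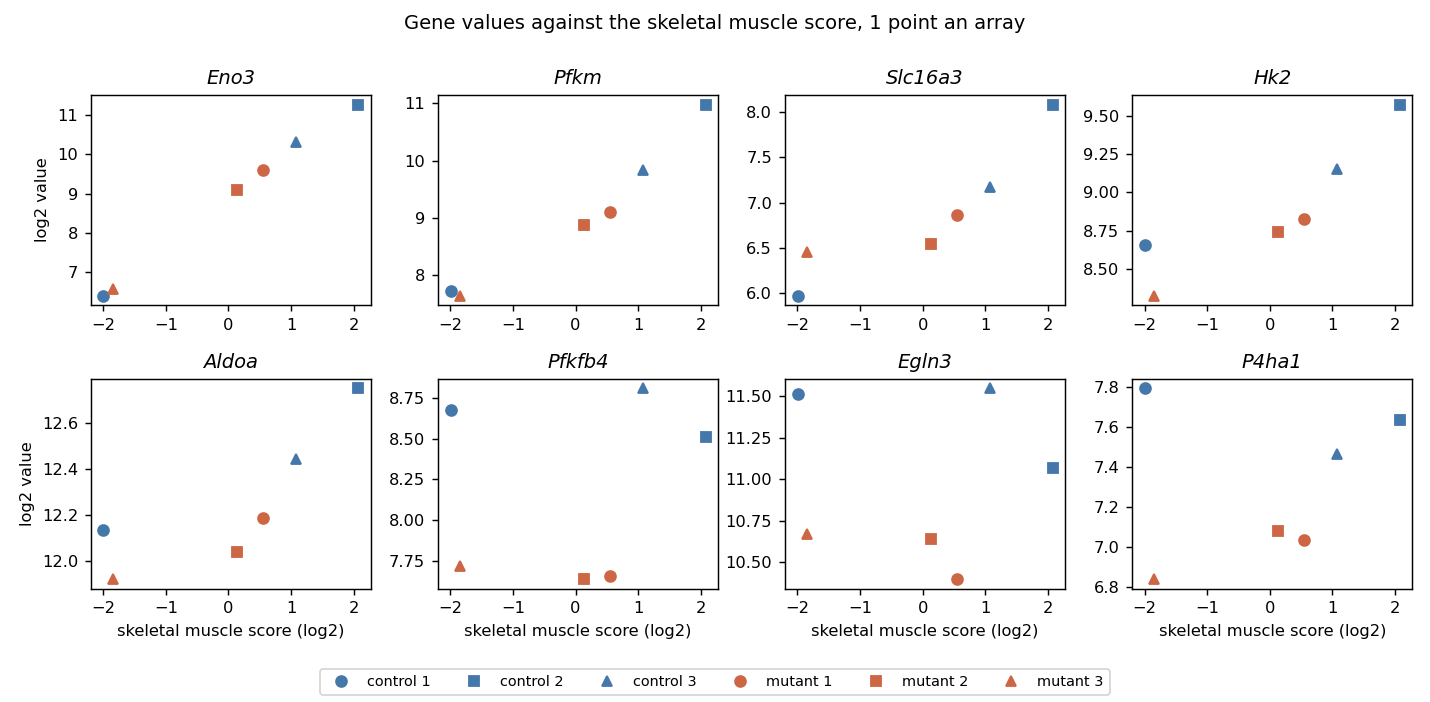
Log2 value of 8 genes (vertical axes) against the skeletal muscle score of each array (horizontal axes, mean log2 deviation of 23 markers); blue marks control, orange mutant, and the shape the replicate. *Eno3* and *Pfkm* rise along the score across both genotypes, whereas for *Pfkfb4*, *Egln3* and *P4ha1* every mutant point lies below every control point. The highest mutant score was 0.54, below those of control 2 and 3 (2.08 and 1.08). The genotypes can therefore not be compared at high scores.

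**Figure D4:**
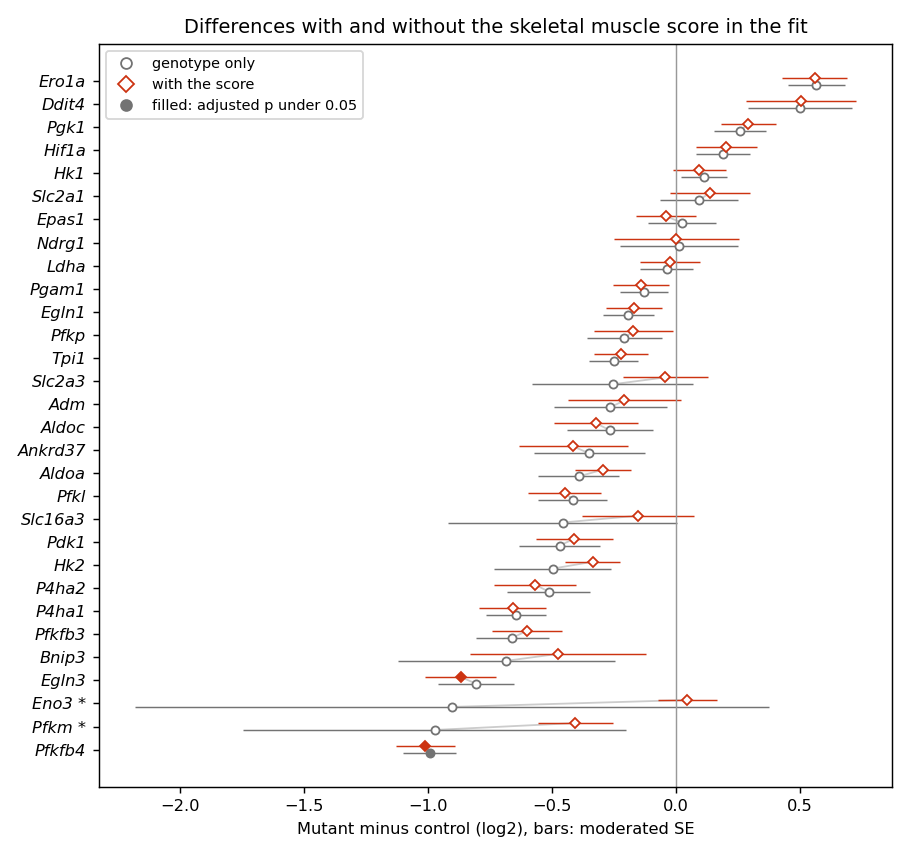
Difference of mutant minus control (log2) for the 30 genes, fitted on genotype only (grey circles) and with the skeletal muscle score (red diamonds), with moderated standard errors and filled points where the adjusted p was under 0.05. The error bars of *Eno3*, *Pfkm* and *Slc16a3* shrink with the score, and *Pfkfb4* and *Egln3* are filled with it.

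The sexes gave different medians for the glycolysis genes. Between the male of each genotype, 9 of 18 glycolysis genes were lower, with a median of -0.0076, while in the females alone 16 of 18 were lower, with a median of -0.45. The skeletal muscle score was higher on the mutant array of the male pair and lower on average on the mutant arrays of the females. For the hypoxia genes, the medians were -0.22 in the male pair and -0.20 in the females. The interaction of genotype and sex called none of the 30 members in limma, with 6 at an unadjusted p under 0.05 (5.82% of all genes). The share of skeletal muscle RNA in the contrast between the male pair and the females was not tested.

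Other genes of these pathways, taken from lists, were mostly not called. Of 43 other genes of the HIF pathway and its targets, 29 were lower (median -0.079). Past the threshold, 2 rose and 1 fell, beside 0.366% and 0.672% of all genes. An unadjusted p under 0.05 in limma was reached by 2 higher and 12 lower genes, beside 5.79% and 6.63% of all genes. The groups did not overlap for 2 higher and 8 lower ones, beside 10.1% and 8.0% of all genes. *Plin2*, encoding the coat protein of lipid droplets, read 8.99, 8.93 and 8.90 in the controls and 10.45, 10.48 and 10.10 in the mutants, and rose by 1.40 ± 0.12 (adjusted p = 0.00595). *Edn1*, encoding the vasoconstrictor endothelin, read 6.33, 6.49 and 6.73 and 7.39, 7.52 and 7.42, and rose by 0.93 ± 0.12 (adjusted p = 0.0189). *Pdgfb*, encoding a growth factor for pericytes and fibroblasts, read 6.93, 7.06 and 7.21 and 6.37, 6.16 and 6.05, and fell by 0.87 ± 0.12 (adjusted p = 0.0243). *Plin2* passed without any single array. *Edn1* did not pass without control 2 (adjusted p = 0.0587) or without mutant 1, 2 or 3 (adjusted p = 0.0639, 0.0731 and 0.0643). *Pdgfb* did not pass without control 2, control 3, mutant 2 or mutant 3 (adjusted p = 0.0674, 0.121, 0.088 and 0.0744). With the replicate block, *Edn1* and *Pdgfb* did not pass (adjusted p = 0.0608 and 0.0935), and neither did in the females alone (adjusted p = 0.0929 and 0.056). With the fibroblast score in the fit *Plin2*, *Edn1* and *Pdgfb* differed by 1.30, 1.35 and -0.63 and none passed.

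Metabolic pathways next to glycolysis gave no call in limma. For comparison, 5.79% of all genes were higher and 6.63% lower at an unadjusted p under 0.05. Of 36 other genes of glycolysis, lactate and pyruvate, 19 were lower (median -0.019), and 1 higher and 2 lower genes had an unadjusted p under 0.05. The smallest p among them belonged to *Slc2a12*, encoding a glucose transporter, which read 6.25, 6.74 and 6.72 in the controls and 5.65, 5.91 and 5.73 in the mutants (difference -0.80 ± 0.15, adjusted p = 0.0705). It was followed by the transporter gene *Slc2a10* (-0.34 ± 0.11) and by *Bpgm*, encoding bisphosphoglycerate mutase (0.41 ± 0.15). Among 21 citrate cycle genes, 14 were lower (median -0.099), and 3 had an unadjusted p under 0.05, all higher. These were the genes of the cytosolic enzymes isocitrate dehydrogenase, *Idh1* (0.85 ± 0.17, adjusted p = 0.0724), aconitase, *Aco1* (0.46 ± 0.10, adjusted p = 0.102), and malate dehydrogenase, *Mdh1* (0.32 ± 0.12, adjusted p = 0.351). The 14 glycogen genes had a median of -0.34, which was -0.100 with the skeletal muscle score in the fit, and 5 of them showed both muscle orders. Their smallest p-values were those of *Pygl*, encoding liver glycogen phosphorylase (-0.38 ± 0.13), *Pgm2* (0.34 ± 0.14) and *Gys2*, encoding liver glycogen synthase (0.19 ± 0.098), with 1 gene higher and 1 lower at an unadjusted p under 0.05. The 7 pentose phosphate genes had a median of -0.10, led by *Pgls* (0.30 ± 0.12), *Pgd* (-0.10 ± 0.098) and *Rpia* (-0.15 ± 0.16), and 1 gene had an unadjusted p under 0.05.

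**Figure D5:**
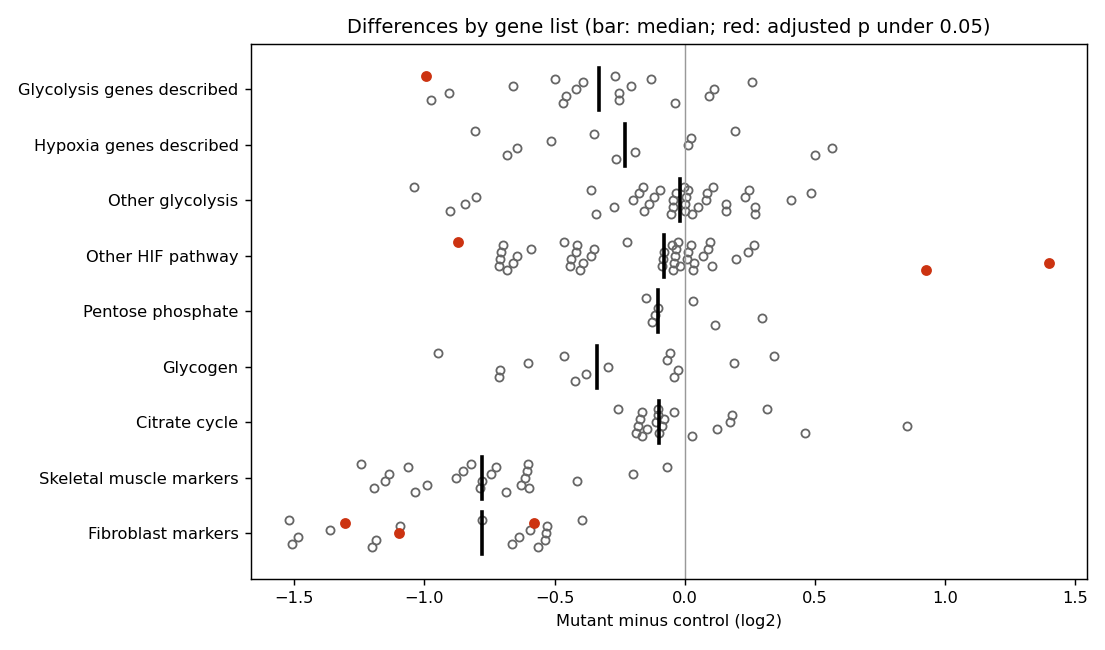
Difference of mutant minus control (log2) for each gene of 9 lists, with the median of each list as a black bar and genes with an adjusted p under 0.05 in red. The glycolysis genes described, the glycogen genes and both marker lists have medians below -0.3, while the other glycolysis genes centre near 0.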

How the data were processed

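Each mouse gave 1 array, made from 100 ng of total RNA by poly(T) priming, linear amplification and biotin labelling, per the labels' protocols. The deposited values are on a log2 scale, which was inferred from their medians (5.01 to 5.13) and maxima (13.99 to 14.67), and cover 28853 probe sets. Partek 6.4 is named by the submitters' processing notes. How background was corrected and arrays were normalized is not given in the sources used here. Both affect the size of differences of dim genes. Precision is limited by the 3 arrays of each genotype.

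The platform annotation gave the gene of each probe set, and Entrez identifiers gave its current symbol (21698 of 21789 single-gene probe sets matched; 1621 named several genes and 5443 were unnamed here). For each of the 19938 genes, the probe set of highest mean signal was kept. Mutants and controls were compared with limma 3.58.1 in R 4.3.3 (genotype only, two-sided, 4 residual degrees of freedom, 7.58 after moderation), adjusted over all genes by Benjamini-Hochberg, with a threshold of 0.05. Errors of differences are moderated SEs. A marker score of an array is the mean, over a list, of each gene's deviation from its mean over the 6 arrays.

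The fit was tested on simulated data for this comparison, with 50 of the 19938 genes altered at each size. It found 20% of the changes of 0.5, 88% of those of 1 and 100% of those of 2 and of 3 (log2), and 12 of its 166 calls were false. The simulated noise was independent for each gene. Shifts shared by many genes, such as those of the skeletal muscle markers, were not simulated, so rates in the real data may differ. Values on all arrays are given for members that passed, had groups that did not overlap or differed by at least 0.5, for *Pfkm*, *Eno3*, *Hif1a* and *Epas1*, and for *Hk2* and *Slc16a3*, which were added after their values were seen. Of the other pathway lists, up to 4 passing genes or the 3 with the smallest p are named. Marker genes were not all named by their control mean. Those of squamous epithelium are the 4 whose groups did not overlap, and no fibroblast, smooth muscle, endothelial or macrophage marker is named. The members and lists were chosen with earlier results of these data known. Alternatives were quantile normalization, centring on array medians, leaving out genes under the 40th percentile, averaging all probe sets of a gene, a replicate block, sex, a trend, array weights, no moderation, the muscle and fibroblast scores, the females alone and each array left out. Plots used Python 3.11.15 and matplotlib 3.10.9.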

Additional observations from a re-analysis of the deposited data

Results flagged for a closer look

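For 6 members the male pair differed one way while the females of the 2 genotypes did not overlap in the opposite direction, a pattern shown by 15.8% of all genes. The male difference (mutant 1 minus control 1) was 3.20 for *Eno3*, 1.39 for *Pfkm*, 0.89 for *Slc16a3*, 0.16 for *Hk2*, 0.051 for *Aldoa* and 0.008 for *Bnip3* on the log2 scale. In the females alone the differences were -2.95, -2.16, -1.13, -0.83, -0.61 and -1.03. The interaction of genotype and sex did not pass in limma for any of them, with the smallest adjusted p for *Eno3* (0.535). With 1 male of each genotype, sex and animal cannot be told apart.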

How the results depend on the processing

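The count of genes past the threshold, 207, was 81 with the replicate block, 370 with array weights, 7 without moderation, 315 with the skeletal muscle score, 7 with the fibroblast score, 83 in the females alone and between 44 and 193 with 1 array left out. Of the 30 members, 2 passed with quantile normalization, an intensity trend, array weights or the skeletal muscle score, where *Egln3* joined *Pfkfb4*. Without moderation, which is an ordinary t test on the limma fit, 0 passed and 7 had an unadjusted p under 0.05 (10.4% of all genes). With the fibroblast score or in the females alone 0 passed in limma. There 6 and 13 had an unadjusted p under 0.05 (4.33% and 11.5% of all genes). Between 0 and 2 passed with 1 array left out. The 0 was without control 3, where 8 had an unadjusted p under 0.05 in limma (8.54% of all genes). The glycolysis median was 0.11 with the fibroblast score, where 8 of 18 were lower, and between -0.45 and -0.20 with 1 array left out, while the hypoxia median lay between -0.30 and -0.12. The counts of lower members under each alternative were added after seeing the data. With 1 array left out, between 11 and 15 glycolysis and between 7 and 9 hypoxia genes were lower.

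With the fibroblast score, the direction turned for *Slc2a3* (0.62 ± 0.67), *Hk1* (-0.042 ± 0.22), *Hk2* (0.35 ± 0.44), *Pfkm* (2.37 ± 1.15), *Pfkp* (0.23 ± 0.32), *Aldoa* (0.14 ± 0.32), *Eno3* (4.60 ± 1.91), *Ldha* (0.12 ± 0.26), *Slc16a3* (1.54 ± 0.68) and *Epas1* (-0.12 ± 0.33). None of these passed. With the skeletal muscle score it turned for *Eno3* (0.046) and *Epas1* (-0.040). With array weights, *Epas1* was -0.031 and *Ndrg1* -0.11, and *Slc2a1* turned to -0.065 in the females alone. *Epas1* was -0.049 without control 2 and -0.099 without mutant 3, where *Eno3* was 0.066 and 0.021. With 1 array left out, *Eno3* ranged from -2.36 to 0.066, *Epas1* from -0.099 to 0.12, *Slc2a1* from -0.055 to 0.24, *Slc2a3* from -0.51 to 0.087, *Ldha* from -0.092 to 0.026, *Slc16a3* from -1.01 to 0.047 and *Ndrg1* from -0.17 to 0.28. The cause of these changes was not tested. The other 18 members kept their direction under all 18 alternatives. *Pfkfb4* kept its call in 14 of 18, with differences between -1.07 and -0.92, and lost it also without moderation (adjusted p = 0.146).

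The replicate numbers are not stated to pair the animals, and the deviations of same-numbered arrays correlated at -0.17, 0.090 and -0.10 across genes, with no array closest to its own number. With the replicate block, *Pfkfb4* differed by -0.99 (adjusted p = 0.038), while *Edn1* (adjusted p = 0.0608) and *Pdgfb* (adjusted p = 0.0935) lost their calls. The interaction of genotype and sex called 9 genes. The median difference of all genes lay between -0.0012 and 0.044 under the alternatives. Groups of 3 arrays limit what can be detected. Changes of 0.5 were recovered in 20% of simulated cases, in which the noise was independent for each gene.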
